A study of Mus musculus with 12 samples.

Results

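Some of the 12 mouse brain libraries of this series carried a strong signal of striatal neurons, although every library is labelled hippocampus, and the contrast described here sets 4 striatum-rich libraries against the other 8, whatever the treatment. The libraries were chosen by the level of Ppp1r1b, which encodes DARPP-32, a phosphoprotein of striatal projection neurons that relays dopamine signals. Libraries above 300 FPKM (fragments scaled to the length of the gene and to the depth of the library) were called striatum-rich and those below 100 striatum-poor, and all 12 fell on one side or the other. The 4 striatum-rich libraries were replicates 1 and 3 of CON and 1 and 2 of PQQ-H, and the 8 striatum-poor libraries were CON 2, PQQ-L 1 to 5, PQQ-H 3 and PQQ-H 4. The other 13795 genes with a mean of at least 0.5 FPKM over the 12 libraries are the features compared. Since the classes were selected on a transcript measured in the same libraries, no test was made, and every difference between them is a description.

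The mice were wild-type C57BL/6J males aged 20 months that received oral gavage for 14 days before RNA sequencing of the hippocampus. The control group (CON, 3 libraries) received saline, and the other groups received pyrroloquinoline quinone, a redox-active quinone, at 5 mg/kg per day (PQQ-L, 5 libraries) or 10 mg/kg per day (PQQ-H, 4 libraries). No mouse carried a transgene or a targeted allele. The design text assigns 6 mice to each group, and the labels do not tie each library to a mouse, so the spread given is that between these libraries. The striatum-rich class held 2 of 3 CON, 0 of 5 PQQ-L and 2 of 4 PQQ-H libraries, so the low dose and the striatum-poor class cannot be told apart. The names of the libraries open with L or R, which the labels do not explain, and 3 of 7 L and 1 of 5 R libraries were striatum-rich.

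The striatum lies beneath the cortex and is built mostly of inhibitory projection neurons that receive dense dopamine input from the midbrain. Those of the direct pathway carry the D1 dopamine receptor with substance P and dynorphin, and those of the indirect pathway carry the D2 dopamine receptor and an adenosine receptor with enkephalin. Large cholinergic interneurons are scattered among them. The hippocampus is built mostly of glutamatergic neurons, the pyramidal cells of the CA fields and the granule cells of the dentate gyrus, which arise from the dorsal forebrain and use another set of transcription factors. In bulk tissue, fewer cells of a type and less RNA per cell cannot be told apart.

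Sequencing depth did not separate the classes. The whole reads that the FPKM imply summed to 32395680 to 35517505 per library in the striatum-rich class and to 29654553 to 38179496 in the striatum-poor class. No libraries of one treatment looked like repeats of each other, with a chi-square of at least 18.76 per degree of freedom over 19 pairs. Transcripts of the choroid plexus, the epithelium that makes cerebrospinal fluid, were high in all 3 CON libraries, of both classes. Ttr, the main transcript of that epithelium, stood at 3615, 1499 and 5315 FPKM in CON 1, 2 and 3 and between 12.8 and 113 FPKM in the 9 PQQ libraries, and its part in the results was not tested.

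Ppp1r1b itself stood at 1235, 522, 934 and 487 FPKM in CON 1 and 3 and in PQQ-H 1 and 2. Values of the 4 striatum-rich libraries are given in this order throughout. The libraries nearest to the thresholds were PQQ-H 2 inside and PQQ-L 3 outside, at 57.9 FPKM, and the lowest library was PQQ-H 3, at 16.2 FPKM. Penk, the precursor of enkephalin, followed the same order of the top 2 libraries, with 994, 408, 759.7 and 438 FPKM in the striatum-rich libraries against a lowest, median and highest value of 12.0, 24.2 and 63.0 FPKM in the striatum-poor libraries. Mean Penk was 650.0 ± 279 FPKM (SD, n = 4) against 29.2 ± 18.7 (SD, n = 8), and its mean log2 difference was 4.62 ± 0.45 (SE). Neurod6, a transcription factor of dorsal forebrain excitatory neurons, went the other way. It stood at 2.30, 31.6, 18.6 and 22.0 FPKM in the same 4 libraries and between 37.7 and 138 FPKM in the striatum-poor ones, so that the classes did not overlap for either gene.

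Each gene was described by the difference of its class means on the log2(FPKM + 0.1) scale, striatum-rich minus striatum-poor, which understates the difference of weakly detected genes. A gene was counted higher or lower when that difference exceeded 1 and the FPKM of the 4 and the 8 libraries did not overlap. By this rule 355 genes were counted higher, which is 2.57% of the 13795, and 399 were counted lower, which is 2.89%. The median difference over all genes was 0.02, and 75.5% of genes lay within 0.5 of 0. A gene with a mean below 0.5 FPKM in either class passed the level filter only through the other class. Its class means had to differ, and every count that includes such genes carries this limit. The tails were uneven. Of the genes counted higher, 118 had a difference above 2 and 62 above 3, while of those counted lower 95 were below -2 and 19 below -3. Rescaling the FPKM to a fixed sum per library (TPM) moved the median of all genes to -0.13 and the counts to 265 higher and 561 lower, so that the share of higher genes among those counted went from 47.1% to 32.1%.

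**Figure D1:**
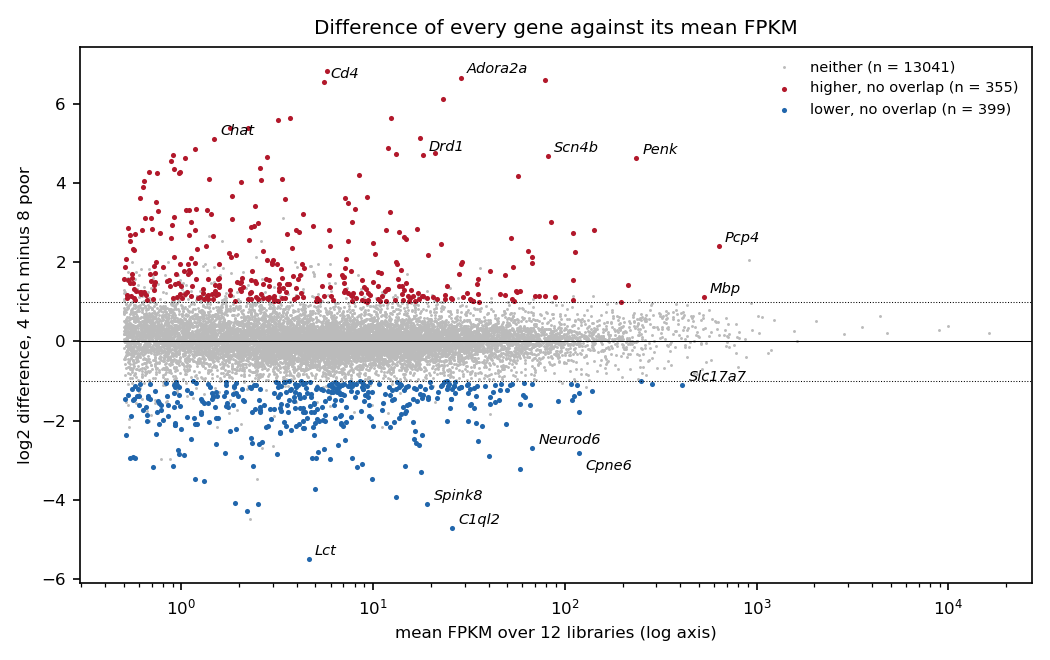
Difference between the class means (log2 scale, 4 striatum-rich minus 8 striatum-poor libraries) of each of 13795 genes against its mean FPKM over the 12 libraries (log axis). Red points are the 355 genes counted higher, blue points the 399 counted lower and grey points the rest. The dotted lines mark differences of 1 and -1, and the highest points reach 6.82, farther from 0 than the lowest at -5.49.

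The transcripts that projection neurons of both striatal pathways share were the broadest group. Of 30 such genes, 27 were counted higher and 0 lower, against 2.57% and 2.89% of all genes, and the median difference was 2.48. Rgs9, which speeds the shut-off of G-protein signals downstream of dopamine receptors, stood at 59.3, 22.98, 44.2 and 21.4 FPKM against a lowest, median and highest value of 0.606, 1.32 and 2.14 FPKM. The 4 libraries stood well clear of the other 8.

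Several proteins that carry dopamine signals inside these cells were among the 27. The G-protein subunits Gnal and Gng7 differed by 1.77 and 2.26, the adenylyl cyclase Adcy5 by 2.61 and the phosphodiesterases Pde1b, Pde10a and Pde7b by 2.73, 3.26 and 2.77. The phosphatase Ptpn5 differed by 1.67 and the small GTPase Rasd2 by 3.03, from 24.3 ± 8.57 FPKM (SD, n = 8) to 204 ± 91.0 (SD, n = 4). The sodium channel subunit Scn4b differed by 4.68, with 103 to 363 FPKM in the striatum-rich and 2.79 to 22.3 FPKM in the striatum-poor libraries. The other shared genes that led the order were Ido1 (5.58), which breaks down tryptophan, the ubiquitin ligase Sh3rf2 (5.4), the retinoid receptor Rxrg (5.13) and the synaptic membrane protein Syndig1l (4.88). Ido1 and Sh3rf2 had striatum-poor means of 0.124 and 0.044 FPKM. They passed the level filter only through the striatum-rich class, so that they had to differ.

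The 3 shared genes that were not counted are also well known from the hippocampus or cortex. Whether that bears on their values was not tested. Bcl11b, a transcription factor of both projection neurons and hippocampal cells, stood at 14.7 ± 2.87 against 11.4 ± 4.202 FPKM (SD, n = 4 and 8). Hpca, the calcium sensor hippocalcin, stood at 628 ± 130.3 against 722 ± 263 FPKM, and Cnr1, the cannabinoid receptor, at 17.6 ± 6.31 against 19.5 ± 3.03 FPKM. All 3 overlapped between the classes.

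Genes of the indirect pathway separated the classes widely. Of 9 that passed the level filter, 7 were counted higher and 0 lower (2.57% and 2.89% of all genes), with a median difference of 4.62. Six3, with a mean of 0.209 FPKM in the striatum-poor class, passed only through the striatum-rich class, so that it had to differ. Adora2a, that adenosine receptor, stood at 139.5, 54.9, 97.0 and 46.6 FPKM in the striatum-rich libraries against a lowest, median and highest value of 0.278, 0.714 and 1.499 FPKM in the other 8, and the ratio of the means was 105. Drd2, the D2 dopamine receptor, stood at 110.0, 42.8, 85.1 and 31.0 FPKM against 0.144 to 2.28 FPKM, a ratio of 63.9. Gpr6, an orphan receptor that raises cyclic AMP, stood at 58.1, 22.8, 42.7 and 19.6 FPKM against 0.127 to 1.42 FPKM. Six3, a homeobox factor of the indirect lineage, ranged from 3.55 to 20.0 FPKM against a median of 0.00750 FPKM, although CON 2 and PQQ-L 3 held 0.623 and 1.02 FPKM. Ttc12 and Grik3 were not counted, with differences of 0.91 and 0.82.

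Of 9 genes of the direct pathway, 6 were counted higher and 0 lower (2.57% and 2.89% of all genes), with a median difference of 2.85. Drd1, the D1 dopamine receptor, stood at 81.3, 33.6, 59.0 and 27.9 FPKM against a lowest, median and highest value of 0.785, 1.47 and 4.73 FPKM. Tac1, the precursor of substance P, stood at 225, 86.2, 163 and 127 FPKM against 2.50, 7.93 and 27.1 FPKM. Pdyn, the dynorphin precursor, differed less, at 39.6 ± 11.9 against 5.504 ± 2.04 FPKM (SD, n = 4 and 8), and its striatum-poor values reached 9.20 FPKM. In the libraries labelled PQQ-L 3, PQQ-L 1 and PQQ-H 4, Drd1 was at 4.73, 2.82 and 2.46 FPKM, the highest of the striatum-poor class.

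**Figure D2:**
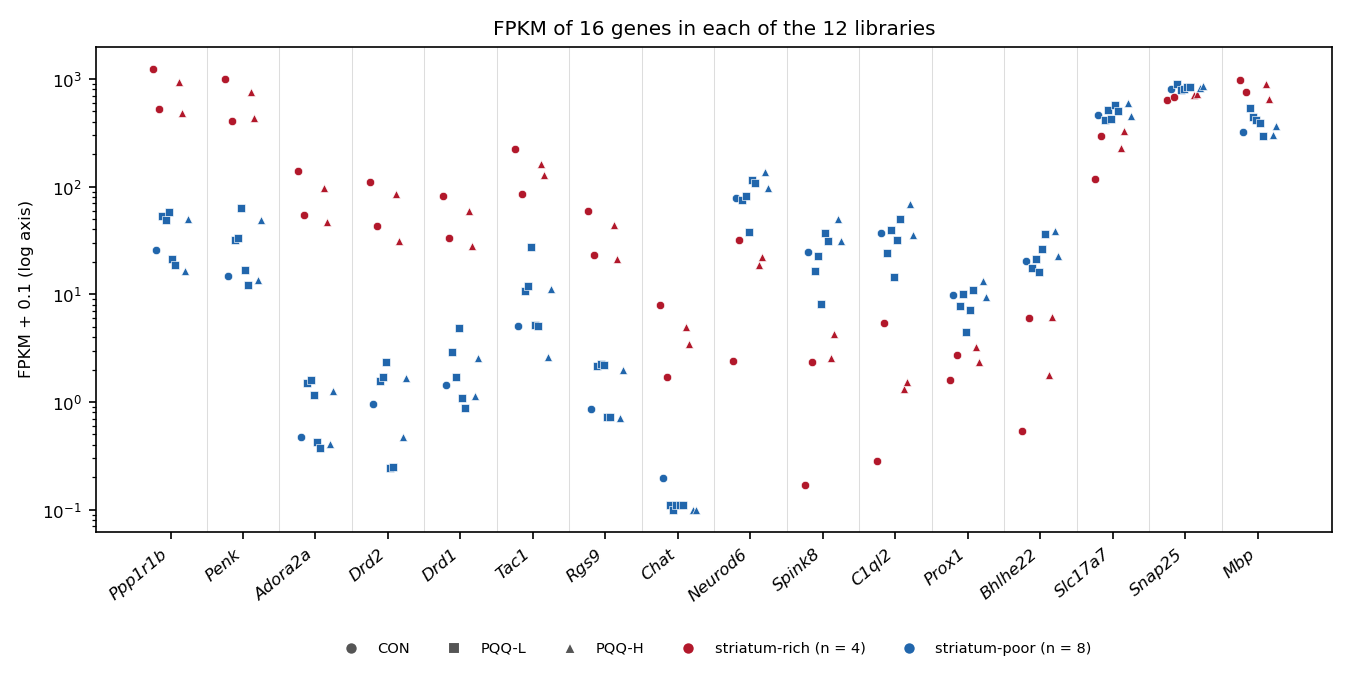
FPKM + 0.1 of 16 genes (log axis) in each of the 12 libraries, red for the 4 striatum-rich and blue for the 8 striatum-poor libraries, with the shape giving the treatment. The red points of Ppp1r1b to Chat lie above all blue ones, those of Neurod6 to Slc17a7 lie below them, and Snap25, a synaptic gene of all neurons, differs by -0.28. The genes drawn were chosen after their values were seen.

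Several markers of cholinergic neurons were near 0 in the striatum-poor class. Of 10 listed genes 8 passed the level filter, and of these 6 were counted higher and 0 lower, with a median difference of 4.18. Genes such as Chat and Lhx8 passed only through the striatum-rich class, so that they had to differ, and nothing is read from this count and median. Chat, which makes acetylcholine, stood at 7.80, 1.63, 4.85 and 3.37 FPKM in the striatum-rich libraries, with 0 to 8 reads in each of the other 8 libraries. The LIM factor Lhx8 stood at 1.05 to 3.67 FPKM against 0 in 7 of the 8 libraries. Of the striatum-poor libraries only CON 2 held Lhx8 reads, at 0.121 FPKM. The choline transporter Slc5a7 differed by 4.11 and the vesicular transporter Slc18a3 by 4.25. These weakly expressed genes shift with the constant added before taking logs, and the median of the list was 1.77 with a constant of 1 and 5.78 with 0.01.

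The promoters of a pair of higher genes, Gpr6 and Rgs9, are shown beside those of a pair of lower ones, Neurod6 and C1ql2. They are the 250 bases before the annotated start in RefSeq (build GRCm38.p6, while the submitters name mm39), written 5′ to 3′ along the gene, and were picked after the values were seen. Capitals mark matches, on either strand, to TGACGTCA and its core TGACG (cyclic AMP response element, the short form being part of the long one), to the E-boxes CAGATG and CAGCTG, to AGGTCA (retinoid receptor half-site) and to GGGCGG (GC box).
Gpr6, chr10:41072291-41072540, minus strand: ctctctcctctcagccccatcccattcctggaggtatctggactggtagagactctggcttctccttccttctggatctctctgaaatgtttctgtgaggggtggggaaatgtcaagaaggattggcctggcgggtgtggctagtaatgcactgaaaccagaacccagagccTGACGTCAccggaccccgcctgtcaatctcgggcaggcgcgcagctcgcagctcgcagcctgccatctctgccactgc
Rgs9, chr11:109298182-109298431, minus strand: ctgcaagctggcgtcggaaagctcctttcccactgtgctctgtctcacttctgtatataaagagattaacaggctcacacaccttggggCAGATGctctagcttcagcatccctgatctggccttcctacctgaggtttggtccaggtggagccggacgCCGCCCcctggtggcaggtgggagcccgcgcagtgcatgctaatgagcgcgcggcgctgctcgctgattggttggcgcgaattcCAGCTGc
Neurod6, chr6:55681264-55681513, minus strand: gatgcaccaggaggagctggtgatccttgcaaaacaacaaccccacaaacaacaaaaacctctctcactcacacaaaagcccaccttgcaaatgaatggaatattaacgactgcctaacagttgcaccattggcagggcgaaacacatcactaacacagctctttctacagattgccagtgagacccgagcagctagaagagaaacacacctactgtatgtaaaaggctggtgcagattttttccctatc
C1ql2, chr1:120340332-120340581, plus strand: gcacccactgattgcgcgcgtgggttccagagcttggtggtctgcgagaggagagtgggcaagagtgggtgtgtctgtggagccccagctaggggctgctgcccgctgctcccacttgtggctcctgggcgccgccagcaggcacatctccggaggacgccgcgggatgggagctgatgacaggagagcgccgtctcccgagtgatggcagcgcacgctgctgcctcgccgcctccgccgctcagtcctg
The Gpr6 stretch held the full TGACGTCA starting 78 bases before the start, which 3.14% of the 10854 matched promoters of all genes hold in a window of 300 bases, and 31.4% hold the core. Rgs9 held CAGATG at 161, GGGCGG at 91 on the opposite strand and CAGCTG at 7 bases before the start, motifs that 11.5%, 64% and 15.2% of promoters hold. The Neurod6 and C1ql2 stretches held none of the 6 words, and AGGTCA was in none of the 4 (11.7% of all promoters). Other stretches looked up did not keep this split. Among higher genes, Drd2 held matches, while Drd1 and Rxrg each had a start with a match and a start with 0. Among lower genes, Prox1 held matches at both starts and Lct held 0. A match is a description of letters only. Promoters were matched for 261 of the 355 higher and 299 of the 399 lower genes, under 80% of each, so that a comparison of promoter content between the lists would be void.

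Among the 15 largest differences were also genes from outside the neuronal lists. Serpina9, of the serine protease inhibitor family, led all genes at 6.82 ± 0.40 (SE), with 28.6, 11.001, 19.3 and 9.54 FPKM in the striatum-rich libraries against 0 to 0.143 FPKM. Cd4, best known as the coreceptor of helper T cells, stood at 27.6, 9.29, 20.8 and 8.54 FPKM against 0.00844 to 0.287 FPKM. The 5 further transcripts of T cells, looked up after seeing Cd4, stayed low everywhere, and the highest value of Cd3e, Cd3g, Cd3d, Cd8a or Cd2 in any library was 0.174 FPKM. The glutathione peroxidase Gpx6 stood at 2.24 to 8.87 FPKM against 0 to 2 reads. Serpina9, Cd4 and Gpx6 had striatum-poor means of 0.045, 0.071 and 0.012 FPKM. They passed the level filter only through the striatum-rich class, so that they had to differ. By FPKM rather than by ratio, the leaders included Pcp4, a calmodulin regulator, at 1367 ± 583 against 267 ± 114 FPKM (SD, n = 4 and 8), its relative Pcp4l1, at 326 ± 125 against 49.97 ± 24.0 FPKM, and Penk, Pde1b, Scn4b, Gng7 and Rasd2. That top 10 also held Mbp and Apod, both abundant in myelinating cells.

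The genes counted lower were led by markers of the hippocampal fields. Of 14 dentate granule cell genes, 8 were counted lower and 0 higher (2.89% and 2.57% of all genes), with a median difference of -1.46. Lct, the lactase gene, whose brain transcript marks dentate granule cells, had the lowest difference of all genes at -5.49 ± 0.43 (SE), with 0, 0.0193, 0.0369 and 0.0700 FPKM in the striatum-rich libraries against a lowest, median and highest value of 0.932, 7.40 and 13.2 FPKM in the other 8. With a striatum-rich mean of 0.032 FPKM, Lct passed the level filter only through the striatum-poor class, so that it had to differ. C1ql2, a synaptic organiser secreted by granule cells, stood at 0.183, 5.29, 1.21 and 1.44 FPKM against 14.5, 36.1 and 68.2 FPKM. Prox1, the transcription factor that specifies granule cells, stood at 2.38 ± 0.684 against 9.01 ± 2.64 FPKM (SD, n = 4 and 8). Calb1, which granule cells share with many other neurons including those of the striatum, was not counted, at 44.9 ± 10.4 against 48.3 ± 9.77 FPKM.

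Of 18 genes of CA pyramidal neurons, 10 were counted lower and 0 higher (2.89% and 2.57% of all genes). The median difference was -1.31. Spink8, a protease inhibitor that marks CA1, stood at 0.0695, 2.25, 2.46 and 4.15 FPKM in the striatum-rich libraries against a lowest, median and highest value of 7.97, 27.8 and 49.7 FPKM. Fibcd1, a receptor for acetylated sugars, differed by -3.15. Wfs1, Map3k15 and Cacng5 were not counted, with differences of -0.23, -0.12 and 0.01.

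Of 15 genes that hippocampal and cortical excitatory neurons share, 9 were counted lower and 0 higher (2.89% and 2.57% of all genes). The median difference was -1.22. Slc17a7, the vesicular glutamate transporter of these cells, stood at 118, 297, 229 and 331 FPKM in the striatum-rich libraries against a lowest, median and highest value of 414, 483 and 599 FPKM, and the ratio of the means was 2.02. The basic helix-loop-helix factors Bhlhe22, Neurod1, Neurod6 and Neurod2 differed by -3.28, -2.93, -2.70 and -2.01. The genes with the largest difference in FPKM after Slc17a7 included those of the secreted or membrane proteins Olfm1, Nrn1, Nell2 and Nptx1, the tubulin Tubb2a, the calcium-binding Cpne6, the AMPA receptor subunit Gria1 and Fam131a. Of these, Cpne6 stood at 27.1 ± 15.6 against 165 ± 47.1 FPKM (SD, n = 4 and 8) and Tubb2a at 150.2 ± 31.5 against 297 ± 32.2 FPKM.

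The 15 lowest differences also included the sodium-proton exchanger Slc9a4 (-4.07), the protocadherin Pcdh20 (-3.91), the AMPA receptor partner Shisa6 (-3.48), the keratin Krt2 (-3.47), the calcium-binding protein Cabp7 (-3.21), the transcription factors Prdm8 (-3.18) and Lhx9 (-3.14), Rtl3 (-3.17), derived from a retrotransposon, and the tryptophan dioxygenase Tdo2 (-3.13). Krt2 had 0 to 12 reads in each striatum-rich library. Slc9a4, Krt2, Rtl3, Lhx9 and Tdo2 had striatum-rich means of 0.067, 0.065, 0.016, 0.058 and 0.301 FPKM. They passed the level filter only through the striatum-poor class, so that they had to differ. Among the 399 genes counted lower, 2 had at most 3 reads in each of the 4 striatum-rich libraries, and 23 had at most 3 reads in CON 1.

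Several markers of the hippocampal fields were near 0 in CON 1, although its tissue is labelled hippocampus. Lct was at 0, Spink8 at 0.0695 FPKM, C1ql2 at 0.183 FPKM and Neurod6 at 2.30 FPKM. Others were well detected there. All 18 CA genes summed to 151 FPKM in CON 1 and to 249.5 to 298 FPKM in the other 3 striatum-rich libraries, against 319 to 561 FPKM in the striatum-poor class. The 14 dentate genes summed to 103 FPKM in CON 1 and to 144 to 149 FPKM in the other 3, against 176 to 329 FPKM. The percents that follow cover only the genes counted lower, which were chosen for being low in the striatum-rich class. For the 10 CA genes counted lower, CON 1 had a median of 5.5% of the mean of the striatum-poor libraries, while CON 3, PQQ-H 1 and PQQ-H 2 had 22.4%, 17.6% and 20.9%. For the 8 dentate genes the 4 values were 14.0%, 27.0%, 30.3% and 24.7%. All 4 libraries thus held transcripts from both lists. The sums include genes that differed little between the classes, such as Calb1, Wfs1, Map3k15 and Cacng5. They therefore cannot show how much tissue of either field CON 1 held.

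The same libraries often stood at the ends of their class among the counted genes. CON 1 was the highest of the 4 striatum-rich libraries for 312 of the 355 genes counted higher (87.9%, against 25% of all genes) and the lowest of them for 392 of the 399 counted lower (98.2%, against 35.1%). Among the 8 striatum-poor libraries, PQQ-L 3 was the highest for 148 of the 355 (41.7%, against 20.4% of all genes) and the lowest for 227 of the 399 (56.9%, against 15%). PQQ-H 3 was the lowest for 173 of the 355 (48.7%, against 23.4%) and the highest for 233 of the 399 (58.4%, against 10.1%). These counts describe libraries chosen by a readout and are not independent of one another, since many genes share their cells of origin.

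A percent scale compares the counted genes of the striatal lists between libraries, a comparison set up after the values were seen. The genes were chosen for being high in the striatum-rich class without overlap. The gap between the classes therefore had to appear, and nothing is read from it. Some genes, such as Sh3rf2, Six3 and Chat, also passed the level filter only through the striatum-rich class. Relative to CON 1, the median of the 27 shared projection neuron genes counted higher was 80.9% in PQQ-H 1, 46.6% in CON 3 and 44.1% in PQQ-H 2. The 6 direct-pathway genes gave 71.6%, 41.1% and 43.1% in these libraries, the 7 indirect-pathway genes 76.4%, 39.3% and 35.6%, and the 6 cholinergic genes 61.4%, 29.7% and 42.6%. In the striatum-poor class the shared genes stood at 6.5% to 12.1%, the direct-pathway genes at 1.2% to 6.5% and the indirect-pathway genes at 0.3% to 5.1%, with the highest value of both pathways in PQQ-L 3.

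**Figure D3:**
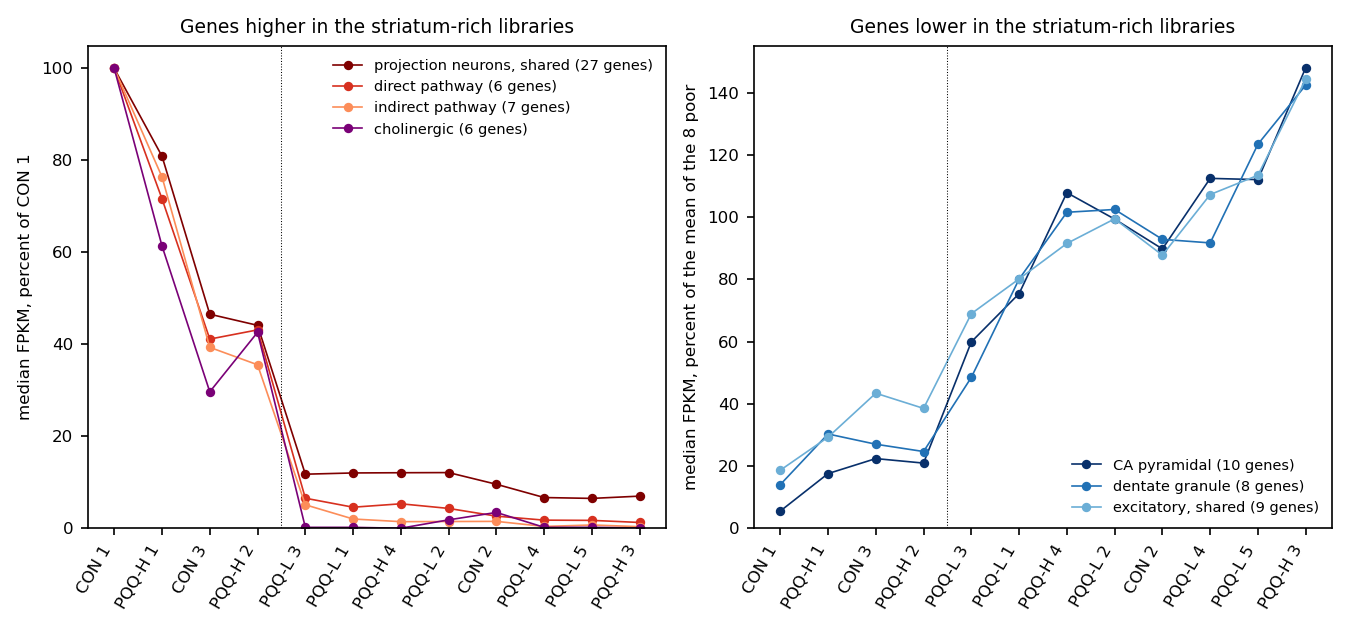
Median FPKM of the counted genes of 7 lists in each library, as a percent of CON 1 for lists higher in the striatum-rich class (left) and of the mean of the 8 striatum-poor libraries for lists lower in it (right). The dotted line separates the 4 striatum-rich libraries from the rest, and no line stands for error. The genes drawn were chosen for separating the classes, so the gap at the dotted line had to appear. PQQ-L 3 has the lowest CA (59.9%) and dentate (48.5%) values of the striatum-poor class, and PQQ-H 3 the highest (148.1% and 142.5%).

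Oligodendrocyte genes, which make myelin, lay on one side, since 20 of 20 had a difference above 0. Their median was 0.92, against 0.02 over all genes. Only Mbp, Mobp, Nkx6-2 and Mog passed the rule, and 0 were counted lower, against 2.57% higher and 2.89% lower of all genes. Mbp, myelin basic protein, stood at 981, 761, 895 and 655 FPKM against a lowest, median and highest value of 294, 375 and 541 FPKM, so that the classes did not overlap. Apod, a lipid carrier abundant in these cells, stood at 367 ± 61.4 against 137 ± 27.0 FPKM (SD, n = 4 and 8). The summed FPKM of the 20 genes ranged from 2300 to 3687 in the striatum-rich and from 1262 to 2203 in the striatum-poor libraries, not rescaled to the FPKM sum of each library.

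Of 18 astrocyte, 17 microglia, 18 endothelium and pericyte, 15 meninges and 11 ependyma genes, 0 were counted in either direction. The medians of these lists were 0.07, 0.42, 0.34, -0.09 and 0.47, against 0.02 over all genes. Across all genes, the shares counted higher and lower were 2.57% and 2.89%. Of the microglia genes 16 of 17 had a difference above 0, and their summed FPKM ranged from 580 to 751 in the striatum-rich and from 394 to 506 in the striatum-poor libraries. Of the endothelium and pericyte genes 17 of 18 had one, with sums of 248.7 to 296 against 182 to 244 FPKM. Neither sum overlapped between the classes, but the FPKM of all genes also summed higher in every striatum-rich library. These list sums were not rescaled for that, so no separation is read from them. The ependyma median was 0.03 with CON 3 left out, 0.05 with PQQ-H 4, 0.30 with PQQ-H 3 and 0.89 with PQQ-H 1 left out. Oligodendrocyte precursors had 2 of 11 counted higher, the AMPA receptor partner Cacng4 (1.95) and Bcas1 (1.13), with a median of 0.13. The 5 blood genes had a median of 1.10, or 0.65 with PQQ-H 2 left out, and 0 counted, with summed FPKM of 150.7 to 599.7 against 55.1 to 250.7, and reads of their near-identical haemoglobin copies may have been split in counting. Of 20 genes of neurons in general, 1 was counted lower, the synapsin Syn2 (-1.08), and the median was -0.21.

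Of 24 choroid plexus genes 0 were counted, against 2.57% higher and 2.89% lower of all genes. The list overlapped between the classes throughout, with a median of 1.30. Its summed FPKM ran from 120.7 to 6201 in the striatum-rich and from 105 to 1888 in the striatum-poor libraries. The median was 1.12 within CON and 0.19 within PQQ-H, and it was 0.74 and 0.54 with CON 1 or CON 3 left out, and 2.13 and 2.01 with PQQ-H 1 or PQQ-H 2 left out.

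Inhibitory interneurons as a group did not separate the classes. Of 17 genes, 1 was counted higher and 1 lower (2.57% and 2.89% of all genes). The median of 0.08 turned to -0.25 within CON and -0.07 as TPM. Slc32a1, the vesicular GABA transporter that projection neurons of the striatum also use, was the higher one, at 60.03 ± 17.4 against 22.0 ± 5.36 FPKM (SD, n = 4 and 8), and the serotonin receptor gene Htr3a the lower one, at 1.32 ± 0.685 against 4.32 ± 0.855 FPKM. Gad1, which makes GABA, stood at 99.4 ± 16.1 against 71.4 ± 9.22 FPKM and was not counted.

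Neighbouring regions gave mixed lists, beside shares of 2.57% counted higher and 2.89% lower over all genes. Of 8 lateral septum genes 3 were counted lower, Trpc4, Dgkg and Mas1, all of which hippocampal neurons also express, with a median of -1.48. Of 15 genes of cortical layers, Foxp2 (3.68), also a factor of striatal projection neurons, and the WNT agonist Rspo1 (2.89) were counted higher and Fezf2 (-1.41) lower, with a median of 0.25 that was -0.08 within CON and 0.13 with CON 3 left out. Of 14 thalamic genes only Ntng1 was counted, at -1.71, and the median of 0.21 became -0.50 within CON and -0.28 without CON 1. Th, the dopamine-synthesising enzyme, was the single counted gene of 3 midbrain dopamine genes that passed, at 2.41 ± 0.873 against 0.554 ± 0.234 FPKM (SD, n = 4 and 8). Of the 3 hypothalamic genes that passed, 0 were counted and the median was 0.64, which was 0.31 with CON 1 or PQQ-H 2 left out and 1.33 with PQQ-H 1 left out.

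**Figure D4:**
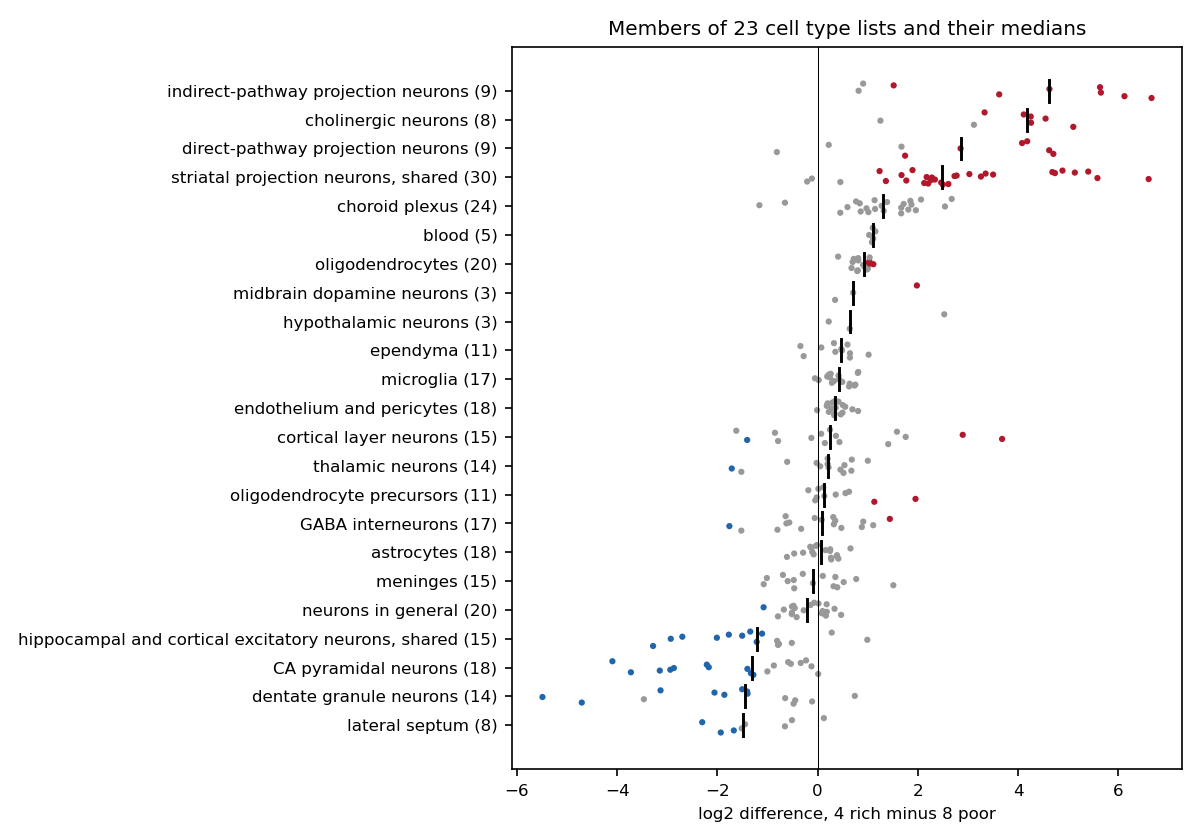
Difference between the class means (log2 scale) of each measured member of 23 cell type lists, with the number of members that passed the level filter in brackets and the median as a black bar. Red members were counted higher, blue members lower and grey members neither, and a gene may sit in more than one list. The 4 striatal lists have medians of 2.48 to 4.62, and the excitatory, CA, dentate and septal lists have medians of -1.22 to -1.48.

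Transcription factors of ventral and dorsal origin were counted on opposite sides. For 20 factors of the ventral forebrain, from which the striatum arises, the median was 1.58. Of these, 13 were counted higher and 0 lower (2.57% and 2.89% of all genes). Beyond Six3 and Rxrg these included Isl1 (4.62), a factor of the direct pathway and of cholinergic neurons, Foxp2 (3.68), Rarb (3.5), Dlx6 (2.54), Meis2 (2.17) and Foxp1 (1.36), while Dlx1 (-0.33) and Dlx2 (0.01) were not counted. Six3 passed the level filter only through the striatum-rich class, so that it had to differ. Of 27 factors of the dorsal forebrain, 10 were counted lower and 0 higher (2.89% and 2.57% of all genes). The median was -0.74, or -0.45 with CON 1 left out. Besides the basic helix-loop-helix group, Lhx9 (-3.14), Prox1 (-1.86), Zbtb18 (-1.57), Fezf2 (-1.41), Zeb2 (-1.35) and Zbtb20 (-1.34) were counted, while Emx1 was not, at -0.77. Lhx9 passed the level filter only through the striatum-poor class, so that it had to differ.

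Peptide and receptor systems split by member, beside shares of 2.57% counted higher and 2.89% lower over all genes. Of 22 dopamine receptor and signalling genes, 10 were counted higher and 1 lower. The lower one was Drd5, the second D1-class receptor, at 1.04 ± 0.435 against 4.63 ± 1.64 FPKM (SD, n = 4 and 8), so Drd1 and Drd2 went one way and Drd5 the other. Of 10 opioid genes, Penk, Oprk1 (3.35) and Pdyn were counted higher and 0 lower. Of 15 retinoid genes, Rxrg, Rarb, the binding protein Crabp1 (3.41) and the plasma carrier Rbp4 (1.22) were counted higher and 0 lower, and Rara stood at -0.81. Of 9 endocannabinoid genes, the enzymes Napepld (-1.47) and Faah (-1.46) were counted lower. Of 22 immediate early genes, Nr4a3 (-2.62), Bdnf (-2.18) and Jun (-1.31) were counted lower, and the list median of -0.29 became 0.03 without CON 1 and 0.13 within PQQ-H.

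The same contrast could be drawn inside CON, where CON 1 and CON 3 were set against CON 2, and inside PQQ-H, where replicates 1 and 2 were set against 3 and 4. All 355 higher genes had differences above 0 and all 399 lower genes differences below 0 in both, but these libraries also made the main contrast, so the counts describe the same values again. Differences above 1 in both were found for 294 of the 355 and below -1 in both for 334 of the 399. Over all 13795 genes, 372 were above 1 in both and 410 below -1 in both. The counted genes were already chosen for a difference beyond 1 in these libraries, so nothing is read from their shares. Adora2a differed by 7.52 within CON and 6.54 within PQQ-H, Serpina9 by 7.03 and 6.45, Cd4 by 6.86 and 6.59, and Ido1 by 6.15 and 6.34. On the lower side Lct differed by -5.57 and -6.10, C1ql2 by -4.90 and -5.12, Slc9a4 by -4.31 and -4.11, and Pcdh20 by -4.48 and -3.64. Six3 was less alike, at 3.56 within CON and 6.48 within PQQ-H. Serpina9, Cd4, Ido1, Six3, Lct and Slc9a4 passed the level filter only through the class where they were high, so that they had to differ.

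**Figure D5:**
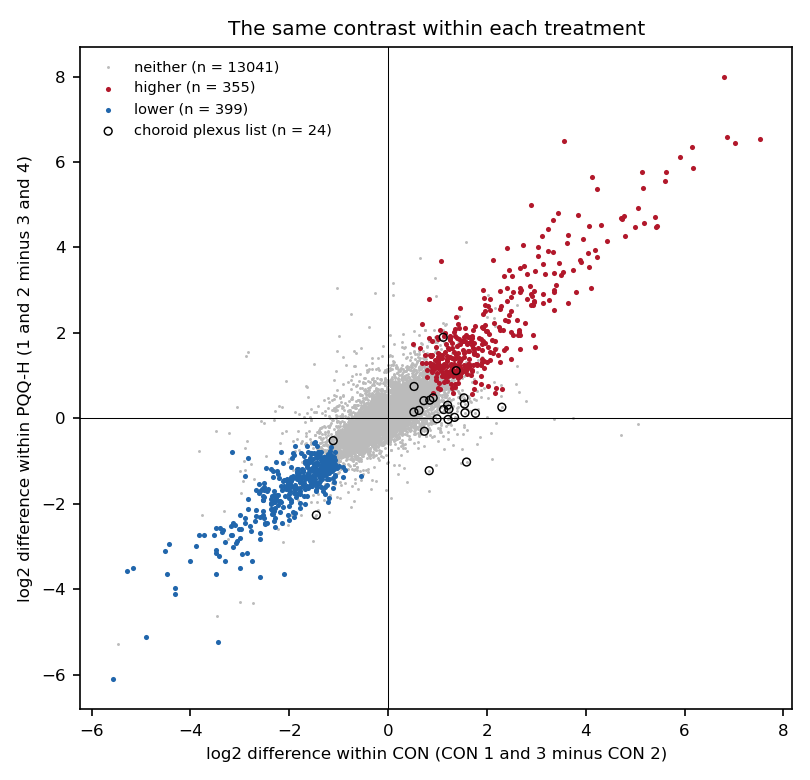
Difference on the log2 scale within CON (CON 1 and 3 minus CON 2, horizontal) and within PQQ-H (1 and 2 minus 3 and 4, vertical) for each gene, red for the 355 counted higher, blue for the 399 counted lower and grey for the rest. Open circles are 24 choroid plexus genes, with medians of 1.12 within CON and 0.19 within PQQ-H.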

How the data were processed

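Hippocampal RNA was sequenced in 12 libraries, and per the labels and methods the authors trimmed, aligned and counted the reads and deposited FPKM per gene for each library. The submitters' processing notes name mm39, and the annotation, strand setting and versions are not given in the sources used here, so antisense and overlapping genes cannot be told apart. Of 27833 genes, 13795 other than Ppp1r1b had a mean of at least 0.5 FPKM. Values were compared on the log2(FPKM + 0.1) scale in Python 3.11.15 (numpy 2.4.6, pandas 2.3.3), and a gene was counted when its class means differed by more than 1 and the classes did not overlap. Libraries were assigned to classes by Ppp1r1b above 300 or below 100 FPKM. The classes, members and 43 gene lists were chosen with earlier results of these data known, so no p-value is given.

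Whole reads were recovered from the ratios of the FPKM between libraries, within 0.02 reads, for 25563 of 25563 genes with values in at least 2 libraries, and a gene whose reads share a divisor is then given too few. The 2096 genes above 0 in 1 library only were left out of this step. The read totals of 29654553 to 38179496 set the counting precision, and a floor of 3 reads was used to mark genes near 0.

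Named genes were the 3 markers, the 15 largest differences in each direction, the 10 largest differences in FPKM in each direction, members of the lists, and the 5 in each direction with the largest smaller difference within CON and within PQQ-H. Some genes that this rule picks are not reported here. The steps were tested on simulated data. Sequences came from RefSeq GRCm38.p6. Alternatives covered the added constant, the level filter, scaling, medians, each treatment alone, the letter of the library name, the replicate number and each library left out.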

Additional observations from a re-analysis of the deposited data

Results flagged for a closer look

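In 182 groups of 4 or 8 values, 8 had a highest or lowest library far from the others by Dixon's criterion, and chance flags about 1 in 20 groups. Among the 8 striatum-poor libraries, Cd4 was high in PQQ-L 2, at 0.2868 FPKM. CON 2 stood apart for Gpx6, at 0.04362 FPKM, and for Chat, at 0.096 FPKM. Of the lists, scored by the mean of log2(FPKM + 0.1), the dentate granule genes were low in PQQ-L 3, at 2.37, the choroid plexus genes high in CON 2, at 2.7, and the nuclear genes of oxidative phosphorylation apart in PQQ-H 4, at 7.31. Among the 4 striatum-rich libraries, the endocannabinoid list was low in CON 1, at 3.61, and the calcium channel list stood apart in PQQ-H 1, at 3.48.

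In 3 lists every sample moved one way within CON and the opposite way within PQQ-H, and these differences were not tested. The difference within CON minus that within PQQ-H was -0.53 for GABA interneurons, -1.07 for meninges and -0.12 for potassium channels.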

How the results depend on the processing

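With a constant of 1 the rule counted 233 genes higher and 245 lower. Within treatment it counted 542 higher, within CON 654 higher and 775 lower, within PQQ-H 623 higher, and without the PQQ-L libraries 535 higher, where fewer libraries make overlap rarer. Leaving out 1 library at a time gave 294 to 461 higher and 300 to 490 lower. With replicate numbers entered as a replicate block, 319 were counted higher (282 of them shared with the main count) and 330 lower (314 shared). The replicate numbers only name the libraries and no source ties them together. The 4 libraries with the highest striatal score were the same 4. That score is the mean of the shared projection neuron list, of which 27 of 30 genes were counted higher. The match therefore had to follow and is no check on the classes.

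Medians of lists moved as follows, and the cause was not tested. A constant of 1 gave 1.91 for direct, 3.10 for indirect and 1.77 for cholinergic genes, -0.78 for the septum, 1.22 for ventral factors and 0.51 for retinoid genes, and a constant of 0.01 gave 5.78 for cholinergic genes. A filter of 1 FPKM gave 3.33 for cholinergic, 2.53 for hypothalamic and -0.18 for serotonin receptor genes. As TPM, cholinergic genes gave 4.88, astrocytes -0.0766, neurons in general -0.36, oxidative phosphorylation 0.0921 and adenylyl cyclases -0.69, and quantile normalization gave -0.47 for neurons in general and 0.0736 for oxidative phosphorylation. Within CON the medians were 3.36 (direct), 3.62 (indirect), 3.29 (cholinergic), -0.25 (GABA interneurons), -2.28 (septum), 0.0047 (opioid), 0.46 (retinoid), -0.58 (AMPA, kainate and NMDA receptors), -0.64 (metabotropic receptors), -1.23 (serotonin receptors), -0.11 (potassium channels) and -0.59 (sodium channels). Within PQQ-H they were 0.17 (hypothalamus), 0.30 (astrocytes), 0.40 (precursors), 0.53 (endothelium), 0.13 (immediate early genes), 0.0749 (oxidative phosphorylation), -0.38 (adenylyl cyclases), -0.28 (muscarinic and nicotinic receptors) and -0.18 (serotonin receptors). Without the PQQ-L libraries the opioid median was 0.0097. Leaving out 1 library gave 0.31 to 1.33 for the hypothalamus and -0.51 to 0.0298 for immediate early genes. Of 1161 list medians under the 27 alternatives 1120 moved by less than 1 SD between libraries, as did 1301 of 1348 values of the 50 named genes, and 0 gene values changed sign.

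All 5 PQQ-L libraries were striatum-poor, so low dose and class cannot be told apart, and with 3 or fewer reads a gene's level is not resolved at this depth.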

Other observations

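Ion channels and transmitter receptors divided by member, described here only by counts and values, as above. The shares over all genes were 2.57% counted higher and 2.89% lower, and small counts near them are not read as results. Of 17 AMPA, kainate and NMDA receptor genes, 0 were counted higher and 4 lower, Grin2a (-1.55), Grik4 (-1.40), Gria1 (-1.30) and Grin2b (-1.22). Of 12 GABA-A receptor subunits, Gabrd was counted higher, at 58.0 ± 17.1 against 14.4 ± 4.39 FPKM (SD, n = 4 and 8), while Gabra5, a subunit abundant in the hippocampus, was counted lower, at 8.98 ± 3.97 against 48.3 ± 13.2 FPKM, as was Gabrb1 (-1.12). Of 7 metabotropic glutamate receptors, Grm4 (1.45) was higher and Grm2 (-2.06) lower. Of 10 serotonin receptors, Htr1b (1.69) was higher, and Htr5b (-2.75), Htr1a (-1.98), Htr3a (-1.76) and Htr4 (-1.61) were lower. Among 69 potassium channel genes 6 were counted higher, led by Kcnh4 (3.10) and Kcna5 (3.0), and 6 lower, led by Kcng2 (-2.79) and Kcnj6 (-2.0). Of 17 phosphodiesterases 4 were higher and 2 lower, of 8 adenylyl cyclases Adcy5 (2.61) was higher and Adcy1 (-1.36) lower, and of 17 RGS proteins Rgs9 (4.73), Rgs4 (1.55) and Rgs20 (1.23) were higher and 0 lower. Among muscarinic and nicotinic receptors, 1 of 8 was higher, Chrm4 (1.74), and 2 lower, Chrna7 (-1.64) and Chrna5 (-1.38). Of 21 calcium and 8 sodium channel genes, 2 and 1 were higher and 2 and 1 lower.

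Of 77 nuclear genes of oxidative phosphorylation, 0 were counted in either direction, while 2.57% of all genes were counted higher and 2.89% lower. Their median difference was 0.24 as FPKM and 0.09 as TPM. Of 14 genes that the study named or followed up and that passed the level filter, 0 were counted. Their median was 1.04, or 0.67 with CON 3 left out. The study predicted its SIRT1 network from the RNA sequencing, so that list is not independent of these libraries. It then measured UCP2, CD74, SFRP5 and SIRT1 by RT-qPCR or western blot. Ucp2, a mitochondrial carrier, stood at 32.6, 37.9, 11.5 and 19.7 FPKM in CON 1, CON 3 and the first and second PQQ-H libraries and between 8.37 and 21.6 FPKM in the other 8, with CON 2 the highest of those. Cd74, of antigen presentation, stood at 14.9, 18.6, 1.005 and 4.67 FPKM against 0.622 to 9.17 FPKM, again with CON 2 the highest. Sirt1, a deacetylase, stood at 2.88 ± 0.262 against 3.40 ± 0.303 FPKM (SD, n = 4 and 8). The exonic length that 1 read implies had a median of 3106 bases for genes counted higher, 5349 bases for those counted lower and 3595 bases for all genes.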
